A study of Mus musculus with 10 samples.

Results

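Transcripts of 8 genes that control the G1 phase were followed on 10 arrays of differentiating mouse embryonic stem cells: the D-type cyclins Ccnd1, Ccnd2 and Ccnd3, their kinases Cdk4 and Cdk6, the inhibitors Cdkn1b and Cdkn1c, and the retinoblastoma gene Rb1. The genes were picked by name, and every probe set annotated with 1 of these symbols alone was taken, which gave 24 probe sets for 8 of the 18194 genes on the array. On the arrays labelled siSocs3, Ccnd2 fell 4.39-fold and Ccnd3 rose 1.37-fold against the non-targeting control, while the Ccnd1 difference, 1.49-fold higher, did not pass the test. The Cdkn1b difference on the same arrays, 1.53-fold lower, was just above the threshold, at an adjusted p of 0.0524 in the limma fit. No G1 gene passed the test on the arrays labelled siSox17, siFbxw7 or siRnf31 against the control.

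D-type cyclins are the cyclins that respond to growth factor signals. They bind CDK4 or CDK6, and the active kinase phosphorylates RB1 and its relatives, which otherwise hold E2F transcription factors in check, so that genes for DNA replication can be transcribed and the cell can pass from G1 into S phase. CDKN1B (p27) and CDKN1C (p57) bind cyclin-kinase complexes and restrain cyclin E-CDK2 in particular. Mouse embryonic stem cells are known for a short G1 phase with little D-type cyclin and high cyclin E-CDK2 activity, and G1 lengthens as they differentiate. Many of these proteins are controlled by ubiquitin-dependent turnover, which arrays of transcripts do not record.

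The study used the NG4 line of mouse embryonic stem cells, transfected with siRNA and kept with retinoic acid, a differentiation signal, for 48 h before total RNA was taken. Each of the 5 groups had 2 arrays and received 1 kind of siRNA: siNonTarget, the control, or an siRNA named for Sox17 (a transcription factor of endoderm), Fbxw7 (the substrate receptor of a ubiquitin ligase that recognises cyclin E and MYC), Socs3 (a feedback inhibitor of cytokine signalling through STAT3) or Rnf31 (a subunit of the linear ubiquitin chain assembly complex). All groups, the control included, were transfected and given retinoic acid, so no array shows untreated stem cells. Whether the 2 arrays of a group stand for separate cultures is not stated in the labels. The spread behind each p-value is therefore that between these arrays, and may be technical.

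In comparison with the control, the targeted genes did not check the labels. Against siNonTarget, Sox17 differed by 0.03 on the log2 scale on the siSox17 arrays, Fbxw7 by -0.25 on the siFbxw7 arrays, Socs3 by 0.44 on the siSocs3 arrays and Rnf31 by -0.40 on the siRnf31 arrays, and none passed the test (limma adjusted p from 0.281 to 0.988). Group names therefore stand for the arrays so labelled throughout. The Sox17 and Socs3 probe sets carry the suffix x, which marks sets with probes that can match other transcripts. For Rnf31, both siRnf31 arrays lay below both control arrays, while Sox17, Fbxw7 and Socs3 overlapped the control in their own groups. Among the group means, Fbxw7 was lowest in siFbxw7 (9.163) and Rnf31 in siRnf31 (7.362). Sox17 was lowest in siNonTarget (6.883), and Socs3 was highest in siSocs3 (10.39). The siFbxw7 arrays lay below those of every other targeted group for Fbxw7, though no such difference passed. All 10 markers of embryonic stem cells were measured at 8.28 or more on every array. Arrays did not always resemble their replicate most: siNonTarget replicate 1 correlated best with siFbxw7 replicate 1 over all genes (r = 0.9974, against 0.9936 with its own replicate). These same 2 arrays had the largest difference between the 3′ and 5′ control probes of actin, a sign of RNA or amplification quality, at 0.497 and 0.597 log2 units against 0.212 to 0.294 on the other 8 arrays. Genes that differed at least 2-fold between replicates numbered 13 in siSocs3, 40 in siSox17, 105 in siRnf31, 208 in siFbxw7 and 220 in siNonTarget. Among the G1 genes, Ccnd2 in siNonTarget was the only such case.

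Promoter sequence was read from RefSeq windows of GRCm38.p6 that run from 250 bases before to 50 bases after an annotated transcript start, and 4 of the 8 genes matched with 5 windows: Ccnd3 with 2, and Cdk4, Cdk6 and Cdkn1b with 1 each. The windows of Ccnd3, the called gene among these, and of Cdk4, for which 1 probe set was called, are shown 5′ to 3′ on the plus strand, which is the coding strand of both genes. Capitals mark E boxes (CACGTG, a site that MYC and related factors can bind) and GC boxes (GGGCGG or its reverse complement, a site that SP factors can bind).
Ccnd3, chr17:47504801-47505100: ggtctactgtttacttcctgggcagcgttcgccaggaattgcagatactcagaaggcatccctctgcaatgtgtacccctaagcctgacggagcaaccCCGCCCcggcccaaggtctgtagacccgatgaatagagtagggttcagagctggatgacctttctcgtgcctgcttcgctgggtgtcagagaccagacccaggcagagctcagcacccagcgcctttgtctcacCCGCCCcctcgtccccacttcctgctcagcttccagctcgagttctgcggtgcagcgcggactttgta
Ccnd3, chr17:47593217-47593516: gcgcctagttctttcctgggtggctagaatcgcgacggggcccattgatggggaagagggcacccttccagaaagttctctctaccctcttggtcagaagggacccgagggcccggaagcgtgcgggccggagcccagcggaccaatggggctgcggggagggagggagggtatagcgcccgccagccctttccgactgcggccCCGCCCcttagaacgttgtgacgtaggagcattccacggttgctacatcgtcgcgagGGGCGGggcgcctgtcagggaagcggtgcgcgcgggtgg
Cdk4, chr10:127063285-127063584: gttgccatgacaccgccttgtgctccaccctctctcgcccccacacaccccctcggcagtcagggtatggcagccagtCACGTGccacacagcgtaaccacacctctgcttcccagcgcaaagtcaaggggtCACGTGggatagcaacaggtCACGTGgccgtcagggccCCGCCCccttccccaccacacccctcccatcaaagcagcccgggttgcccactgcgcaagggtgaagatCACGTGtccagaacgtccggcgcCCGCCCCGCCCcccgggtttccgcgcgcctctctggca

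Both Ccnd3 windows held 2 GC boxes and no E box. The Cdk4 window held 4 E boxes, starting at -172, -118, -98 and -11 counted from the transcript start, and 3 GC boxes, of which the last pair overlap. The Cdk6 window held 1 E box and no GC box, and the Cdkn1b window held 1 GC box. CCAAT boxes, which are not in capitals, numbered 3 in the Cdkn1b window and 1 in the Ccnd3 window at 47593217, starting at -108, and the other 3 windows had none. Searched on both strands, an E box occurred in 7.15% of all 32851 promoter windows, a GC box in 35.7% and a CCAAT box in 37.4%. The STAT motif TTCNNNGAA, present in 8.3% of windows, and the E2F motifs TTTCCCGC, TTTGGCGC or TTTCGCGC, present in 1.84%, had no match in any of the 5 windows, which says only that these letters are not there. The E box was added to the search after the sequences had been seen.

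**Figure D1:**
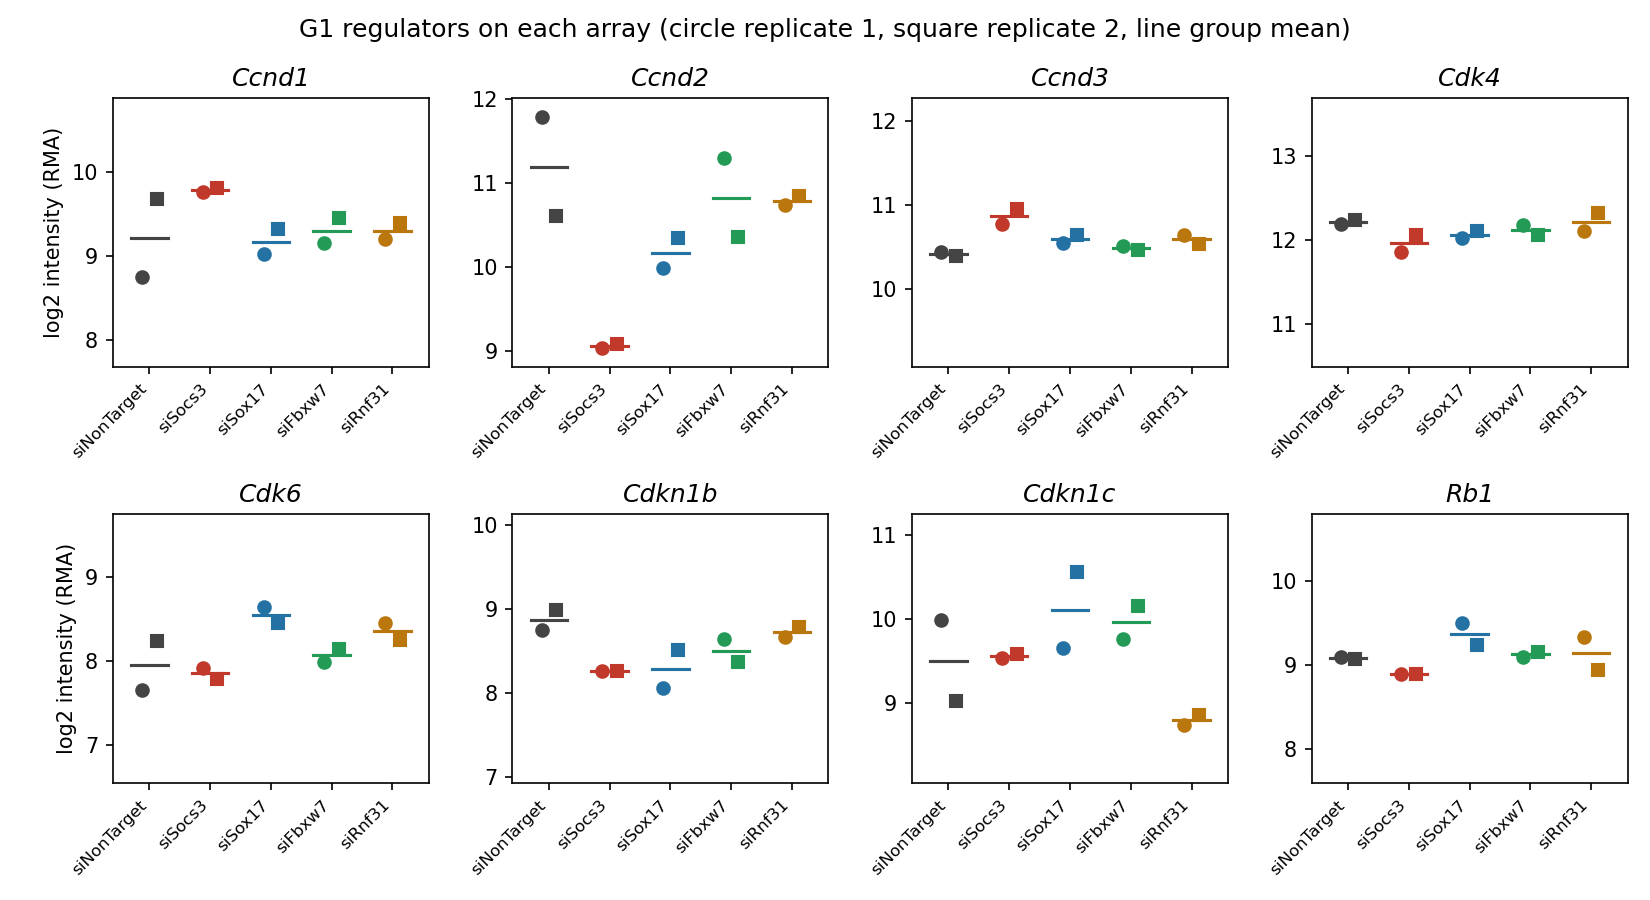
Log2 intensity (y axis) of the 8 G1 genes on each of the 10 arrays, 1 panel per gene, with groups along the x axis; points are arrays and bars are the means of 2 arrays. The 2 siSocs3 points of Ccnd2, at 9.04 and 9.09, lie below every other array.

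Ccnd2, which encodes the D-type cyclin prominent in neural progenitors, varied most between groups. Log2 intensities were 11.79 and 10.60 on the siNonTarget arrays, 9.99 and 10.35 on siSox17, 11.29 and 10.35 on siFbxw7, 9.04 and 9.09 on siSocs3, and 10.73 and 10.84 on siRnf31. Both siSocs3 arrays were the lowest of the 10, siNonTarget replicate 1 was the highest, and the control replicates themselves lay more than 1 log2 unit apart. The range of the 5 group means was 2.13 log2 units, a span wider than that of 99.5% of genes.

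Against siNonTarget, Ccnd2 fell by 2.13 on the log2 scale on the siSocs3 arrays (standard error 0.379, 95% interval -2.99 to -1.28, 2 arrays against 2, limma adjusted p = 0.0137). The 7 probe sets of Ccnd2 all fell, by amounts that ran from -2.70 to -1.39, and each passed when every probe set was tested alone (limma adjusted p from 0.0135 to 0.047). The call rested on single arrays: without siNonTarget replicate 1 the difference was -1.54 (limma adjusted p = 0.058), without siSocs3 replicate 1 it was -2.11 (0.122), and without siSocs3 replicate 2 it was -2.16 (0.0568). With both arrays of high actin difference left out, siNonTarget replicate 1 and siFbxw7 replicate 1, the difference was also -1.54. These 2 groups had the widest Ccnd2 replicate gaps, 1.19 and 0.94 log2 units. That fit no longer counts those gaps in its spread, so its test cannot show whether the call holds.

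Ccnd2 was also lower on the siSox17 arrays than on either control array, in all 7 probe sets, but the difference of -1.03 (standard error 0.379) did not pass (limma adjusted p = 0.219). Differences from siNonTarget were -0.37 in siFbxw7 (limma adjusted p = 0.865) and -0.41 in siRnf31 (0.827), and in both groups the arrays overlapped those of the control. In the direct comparisons, Ccnd2 fell by 1.76 on the siSocs3 arrays against siFbxw7 (limma adjusted p = 0.0404), where 3 of its 7 probe sets passed when tested alone. That call was lost with the 2 groups alone and without any 1 of 7 single arrays: siFbxw7 replicate 1 and both replicates of siSocs3, siSox17 and siRnf31. In the same comparison 3 of 8 neural ectoderm markers (median -1.47) and 3 of 9 extraembryonic endoderm markers (median -0.90) fell and none rose, and their part in the Ccnd2 difference was not tested. Against siRnf31 the siSocs3 arrays were lower by -1.73 (limma adjusted p = 0.0579) and against siSox17 by -1.11 (0.173), with no overlap of arrays but without passing. The siRnf31 difference did pass when either siNonTarget array or either siFbxw7 array was left out of the fit. Neither group is part of that comparison, so the difference itself stayed at -1.73. These fits no longer count the Ccnd2 replicate gap of the reduced group in their spread, so they cannot show whether the difference holds.

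**Figure D2:**
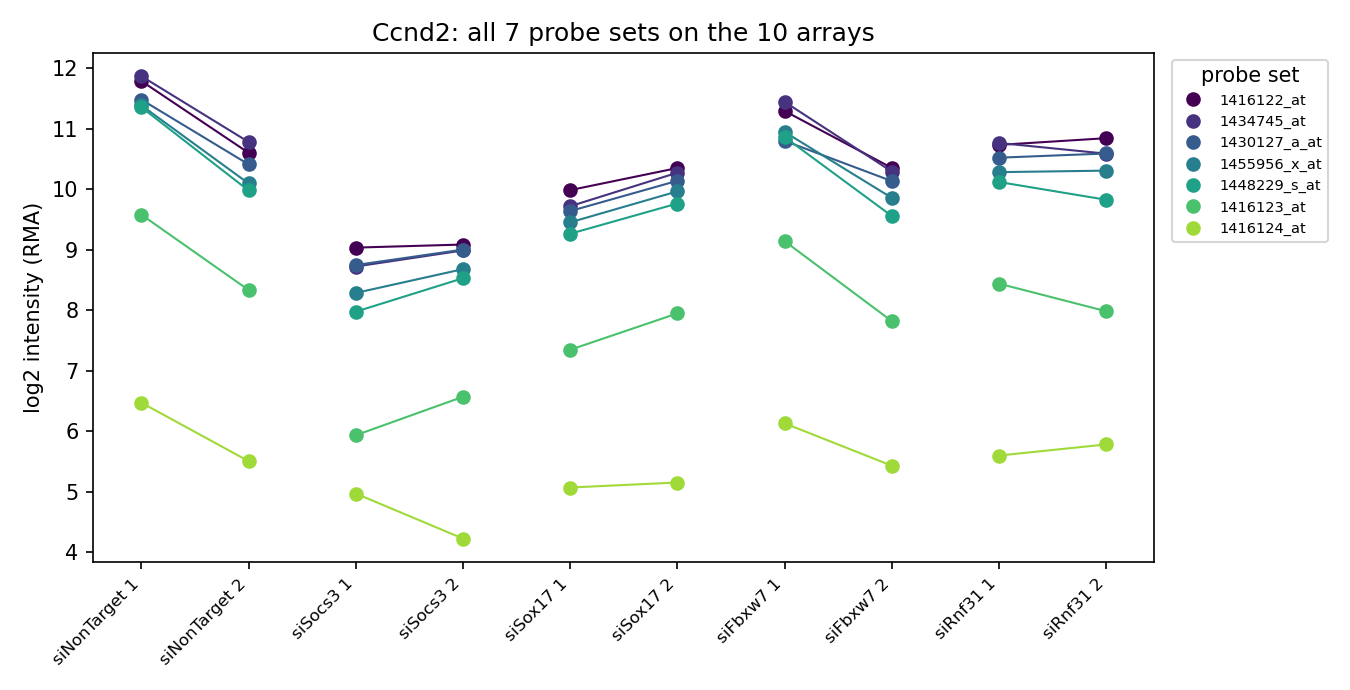
Log2 intensity (y axis) of each of the 7 Ccnd2 probe sets across the 10 arrays (x axis), 1 line per probe set. Every probe set is lower on both siSocs3 arrays than on either siNonTarget array, with differences of group means from -2.70 to -1.39.

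Markers of neural ectoderm moved in part with Ccnd2. Of 8 such markers (Sox1, Pax6, Zic1, Nes, Map2, Ncam1, Hoxb5 and Meis2), 7 fell and none rose on the siSocs3 arrays against siNonTarget, with a median difference of -1.92. Their summed intensity was 5511 and 3925 on the siNonTarget arrays, 2686 and 2911 on siSox17, 4683 and 2715 on siFbxw7, 1214 and 1523 on siSocs3, and 2527 and 3734 on siRnf31. As for Ccnd2, the siSocs3 arrays were the lowest, siNonTarget replicate 1 the highest, and siFbxw7 replicate 1 above siFbxw7 replicate 2. Other arrays changed order: siRnf31 replicate 1 lay below both siSox17 arrays for the summed markers but above both for Ccnd2. By the median log2 intensity of the markers, siRnf31 replicate 1, at 8.04, lay between the siSox17 arrays, at 7.77 and 8.10. The siNonTarget replicate 2 array lay above both siRnf31 arrays for the markers but below both for Ccnd2. In the same comparison 6 of 10 embryonic stem cell markers rose and none fell, with a median of 1.30. No marker of either list was at 0 on any array, since RMA gives every probe set a positive value. The part of these shifts in the Ccnd2 difference was not tested, and in bulk RNA fewer cells of a type and less RNA per cell cannot be told apart.

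Ccnd3, a D-type cyclin transcribed in many tissues, changed by a smaller amount with tighter replicates. Its log2 intensities were 10.44 and 10.39 in siNonTarget, 10.54 and 10.64 in siSox17, 10.51 and 10.46 in siFbxw7, 10.78 and 10.96 in siSocs3, and 10.64 and 10.54 in siRnf31. The siSocs3 arrays were the highest of all, and the control arrays were the lowest. Ccnd3 rose by 0.46 on the siSocs3 arrays (standard error 0.103, 95% interval 0.22 to 0.69, limma adjusted p = 0.0293). The other 2 probe sets lay in the same direction without passing, at 0.41 (limma adjusted p = 0.125) and 0.15 (0.495). The call was lost with the mean of the 3 probe sets (0.34, limma adjusted p = 0.0541), with the 2 groups alone (0.0781), without both arrays of high actin difference (0.0887) and without any single array of these 2 groups: siNonTarget replicate 1 (0.1), siNonTarget replicate 2 (0.0902), siSocs3 replicate 1 (0.114) or siSocs3 replicate 2 (0.146).

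In the other groups, Ccnd3 differed from siNonTarget by 0.18 in siSox17 (limma adjusted p = 0.412), 0.07 in siFbxw7 (0.911) and 0.18 in siRnf31 (0.778). Each of these groups lay above both control arrays, though none passed. The 2 siSocs3 arrays were also above those of the other targeted groups, by 0.28 against siSox17 (limma adjusted p = 0.209), 0.39 against siFbxw7 (0.083) and 0.28 against siRnf31 (0.217).

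Ccnd1, the D-type cyclin best known as a target of mitogen and Wnt signals, had log2 intensities of 8.75 and 9.67 in siNonTarget, 9.02 and 9.32 in siSox17, 9.15 and 9.45 in siFbxw7, 9.76 and 9.81 in siSocs3, and 9.20 and 9.39 in siRnf31. On the brightest of its 3 probe sets, which gave these values, the siSocs3 arrays were the highest of the 10, narrowly above siNonTarget replicate 2. There, all arrays of the other 3 groups lay between the 2 control arrays. The difference of 0.57 (standard error 0.26, 95% interval -0.01 to 1.16) did not pass (limma adjusted p = 0.199). That difference depended on the control arrays: it was 1.04 without siNonTarget replicate 2 and 0.11 without siNonTarget replicate 1. It was also 0.11 without both arrays of high actin difference. The array with the highest Ccnd2 value, siNonTarget replicate 1, had the lowest Ccnd1 value. Differences from siNonTarget in the other groups ran from -0.04 in siSox17 to 0.09 in siFbxw7 on the brightest probe set, with overlapping arrays. Tested alone, 1448698_at was higher in siSocs3 by 0.30 (limma adjusted p = 0.348) and 1417419_at by 0.38 (0.469). On 1417419_at siNonTarget replicate 2, at 9.17, lay above both siSocs3 arrays, at 9.09 and 9.0. The other groups differed there by -0.34 in siSox17, -0.18 in siFbxw7 and -0.13 in siRnf31.

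Cdk4, the kinase partner of the D cyclins in most cell types, was steady across groups, with a span of group means of 0.258, wider than that of 42.1% of genes. Its representative probe set gave 12.19 and 12.24 in siNonTarget, 12.02 and 12.10 in siSox17, 12.18 and 12.05 in siFbxw7, 11.86 and 12.06 in siSocs3, and 12.11 and 12.32 in siRnf31. The siSocs3 arrays lay below both control arrays, by -0.26 (standard error 0.117), without passing (limma adjusted p = 0.201). The 3 probe sets of Cdk4 differed in their calls, and the representative one carries the suffix x, which marks sets with probes that can match other transcripts. Probe set 1422439_a_at had 11.90 and 11.93 in siNonTarget against 11.22 and 11.50 in siSocs3, and fell by 0.55 when each probe set was tested alone (limma adjusted p = 0.0351). Probe set 1422440_at was lower by -0.42 without passing (limma adjusted p = 0.145). Against siNonTarget, Cdk4 differed by -0.15 in siSox17, -0.10 in siFbxw7 and 0.00 in siRnf31, and none passed (limma adjusted p from 0.543 to 0.999).

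Cdk6, the related kinase, had log2 intensities of 7.66 and 8.25 in siNonTarget, 8.65 and 8.46 in siSox17, 8.0 and 8.15 in siFbxw7, 7.93 and 7.79 in siSocs3, and 8.46 and 8.26 in siRnf31. The siSox17 arrays were highest, together with siRnf31 replicate 1, and the siSocs3 arrays were low but within the range of the control. Cdk6 was higher by 0.60 in siSox17 (standard error 0.183, limma adjusted p = 0.167) and by 0.41 in siRnf31 (0.778), with no overlap with the control arrays and without passing. Directly compared, the siSocs3 arrays lay below siSox17 by -0.70 (limma adjusted p = 0.0881) and below siRnf31 by -0.50 (0.21). The direct contrast of siSocs3 with siSox17 passed when either siNonTarget array was left out of the fit. No siNonTarget array is part of that contrast, so the difference itself stayed at -0.70. Such a fit no longer counts the Cdk6 replicate gap of the control, 0.592 log2 units, in its spread, so it cannot show whether the difference holds. All 3 Cdk6 probe sets were higher in siSox17 than in siNonTarget, by 0.30 to 0.60.

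Cdkn1b, the gene of the inhibitor p27, was highest on the control and siRnf31 arrays. Its values were 8.75 and 9.0 in siNonTarget, 8.07 and 8.52 in siSox17, 8.65 and 8.37 in siFbxw7, 8.26 and 8.26 in siSocs3, and 8.67 and 8.79 in siRnf31. All arrays of siSox17, siFbxw7 and siSocs3 lay below both control arrays. The differences were -0.61 in siSocs3 (standard error 0.165, limma adjusted p = 0.0524), -0.58 in siSox17 (0.162) and -0.37 in siFbxw7 (0.752), so none passed. In siRnf31 the difference was -0.15 (limma adjusted p = 0.854), with overlapping arrays. The siSocs3 difference passed in 8 of 19 alternative settings that gave it a test, with adjusted p from 0.0419 to 0.244. A second probe set of Cdkn1b was dim, at 3.97 to 4.62 over the arrays, and differed by -0.14 in siSocs3.

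Cdkn1c, the imprinted gene of the inhibitor p57, varied in a different way. Its single probe set gave 9.99 and 9.02 in siNonTarget, 9.65 and 10.56 in siSox17, 9.77 and 10.16 in siFbxw7, 9.53 and 9.58 in siSocs3, and 8.74 and 8.85 in siRnf31. Both siRnf31 arrays were the lowest of the 10 and siSox17 replicate 2 was the highest, while the control replicates lay nearly 1 log2 unit apart. The group means spanned 1.31 log2 units, wider than 97.7% of genes, yet the difference of siRnf31 from siNonTarget was -0.71 (standard error 0.339) with a limma adjusted p of 0.778. The siSox17 arrays lay above siRnf31 by 1.31 (limma adjusted p = 0.509) and the siFbxw7 arrays by 1.17 (0.922), without overlap and without passing. On the siSocs3 arrays Cdkn1c differed from siNonTarget by 0.05, and the arrays overlapped.

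Rb1, which encodes the protein that CDK4 and CDK6 phosphorylate, had log2 intensities of 9.10 and 9.07 in siNonTarget, 9.50 and 9.24 in siSox17, 9.10 and 9.16 in siFbxw7, 8.89 and 8.89 in siSocs3, and 9.34 and 8.95 in siRnf31. The siSocs3 arrays were the lowest and siSox17 replicate 1 the highest. Against siNonTarget, Rb1 differed by -0.19 in siSocs3 (limma adjusted p = 0.437) and by 0.29 in siSox17 (0.342). The direct difference of siSocs3 from siSox17 was -0.47 (standard error 0.142, limma adjusted p = 0.127). A second probe set of Rb1 was dim, at 4.41 to 5.18 over the arrays. Tested alone, it differed from siNonTarget by -0.14 in siSocs3 (limma adjusted p = 0.623) and by 0.45 in siSox17 (0.237). Its direct difference of siSocs3 from siSox17 was -0.59 (limma adjusted p = 0.1). No difference of Rb1 passed in any of the 10 comparisons, on either probe set.

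**Figure D3:**
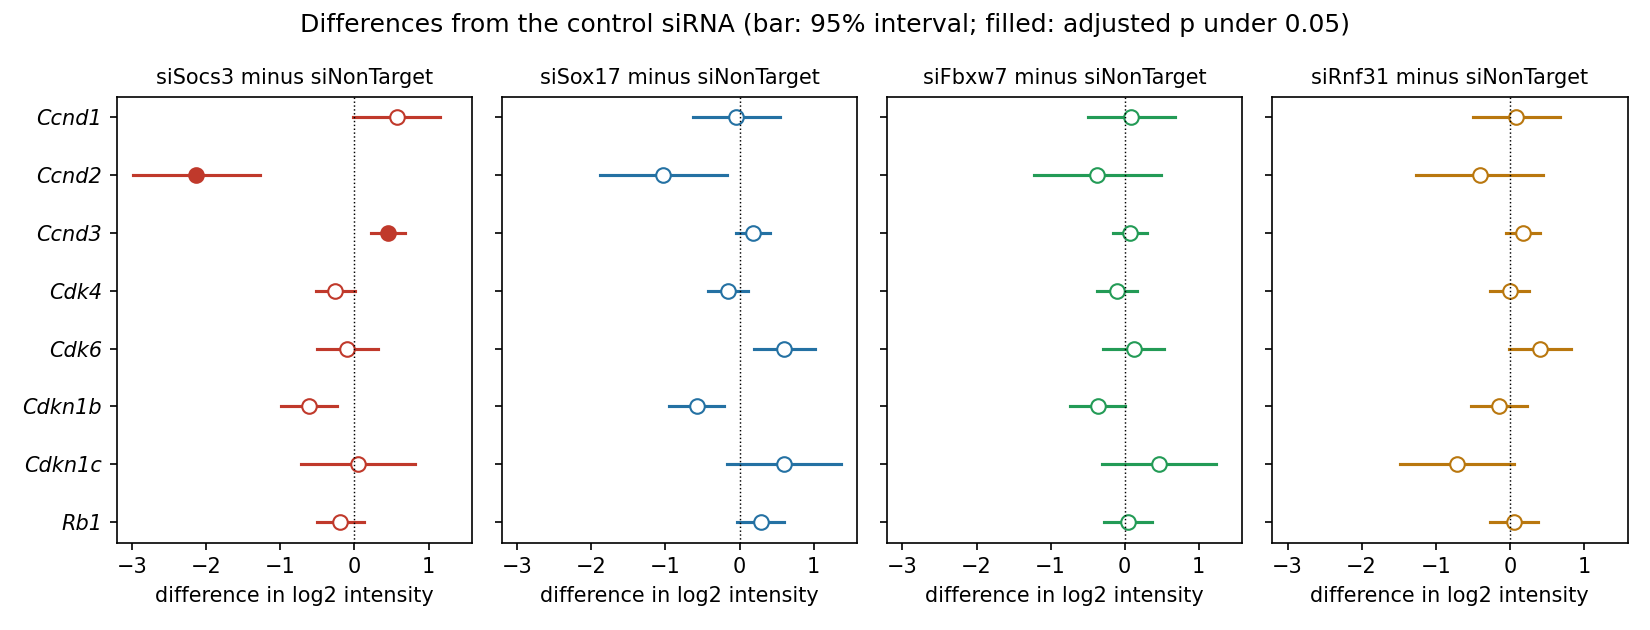
Difference in log2 intensity from siNonTarget (x axis) for each of the 8 G1 genes in the 4 targeted groups, with the 95% interval of the limma fit; filled points passed at an adjusted p under 0.05. Only Ccnd2, at -2.13, and Ccnd3, at 0.46, are filled, both on the siSocs3 arrays.

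Read against all genes, 2 of the 8 G1 genes passed on the siSocs3 arrays, where 9.26% of genes did. Of the 8, 1 rose, where 3.59% of all genes rose, and 1 fell, where 5.66% fell. The split of calls over all genes depended on the scaling: 38.8% of calls were higher as deposited, 45% after quantile normalization and 58.6% after median centring, which moved the median of all genes from 0.03 to 0.12 on the log2 scale. The directions and calls of Ccnd2 and Ccnd3 held under both scalings. The siSocs3 and control arrays did not overlap for 6 of the 8 G1 genes, against 57.2% of all genes, and the median difference was -0.14 over the 8 genes and 0.03 over all.

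In siSox17, 0 of the 8 passed the limma fit, where 0.0055% of genes did (3 of the 8, Ccnd2, Cdk6 and Cdkn1b, and 3151 of all genes had an unadjusted p under 0.05), and arrays did not overlap for 6 of the 8, against 48.2% of genes. In siFbxw7, 0 of the 8 and 0% of genes passed (0 of the 8 and 1174 of all genes with an unadjusted p under 0.05), and 3 of the 8 did not overlap, against 33% of genes. In siRnf31, 0 of the 8 and 0% of genes passed (0 of the 8 and 1068 genes), and 3 of the 8 did not overlap, against 35.2%. The 4 comparisons share the control arrays, so the values of a gene in them are not independent.

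Among the direct comparisons in the limma fit, 1 of the 8, Ccnd2, passed between siSocs3 and siFbxw7, where 3.51% of genes passed and 1.41% were called lower in siSocs3. Between siSocs3 and siSox17, 0 of the 8 passed, where 2.61% of genes did. There, 5 of the 8 had an unadjusted p under 0.05 (3163 of all genes): Ccnd1, Ccnd2, Ccnd3, Cdk6 and Rb1. Between siSocs3 and siRnf31, 0 of the 8 passed, where 2.13% of genes did, and 4 of the 8 (Ccnd2, Ccnd3, Cdk6 and Cdkn1b) and 3072 of all genes had an unadjusted p under 0.05. In the limma fit, 0 of the 8 and 0% of genes passed between siFbxw7 and siSox17 (Cdk6 and 1017 genes in all with an unadjusted p under 0.05), 0% between siFbxw7 and siRnf31 (Cdkn1c and 945 genes in all) and 0% between siSox17 and siRnf31 (Cdkn1b and Cdkn1c and 1397 genes in all). When the 5 groups were ordered by mean for each of the 8 genes, none of the 32 pairs of neighbouring groups passed.

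Around the 8 genes, 71 other genes of the pathway in 6 lists were measured, and 8 passed on the siSocs3 arrays against siNonTarget, 2 higher and 6 lower. Among all genes 9.26% passed in this comparison, 3.59% higher and 5.66% lower, so the pathway's share of calls was near that of the array as a whole. The RB family and E2F list had the most: 4 of 16 fell and none rose, with a median of -0.04 over the list against 0.03 over all genes. Tfdp2, a dimerisation partner of E2F factors, fell by 0.83 (limma adjusted p = 0.015). E2f6, a repressor of the family, fell by 0.49 (0.0236), E2f3 by 0.52 (0.0315) and E2f5 by 0.47 (0.0427). All 4 of these calls were lost with all probe sets of a gene averaged, where the differences were -0.38 for Tfdp2 (limma adjusted p = 0.193), -0.25 for E2f6 (0.195), -0.08 for E2f3 (0.608) and -0.33 for E2f5 (0.106). Rbl1 (p107) differed by -0.41 (limma adjusted p = 0.14) and E2f1 by 0.07 (0.781), and neither passed.

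Of 17 genes of S-phase entry known as E2F targets, 1 rose and none fell: Orc1, a subunit of the origin recognition complex, was higher by 0.71 (standard error 0.109, limma adjusted p = 0.00872). The median over that list was 0.17. Of 9 other cyclins and kinases of the G1/S step, 1 fell, Cdk7 of the CDK-activating kinase, by 0.37 (limma adjusted p = 0.0489). Ccne1, the gene of cyclin E1, was higher by 0.32 without passing (limma adjusted p = 0.0799), and its partner kinase Cdk2 differed by 0.04 (0.87). Of 6 other kinase inhibitors none passed, and Cdkn1a (p21) differed by -0.25 (limma adjusted p = 0.432). Of 12 genes of kinase phosphatases and of p27 and cyclin turnover, 1 fell, Gsk3b, whose kinase marks cyclin D1 for degradation, by 0.52 (limma adjusted p = 0.0258). Of 11 upstream mitogen and Wnt genes, 1 rose, the immediate early gene Egr1, by 0.52 (limma adjusted p = 0.0485), and Myc differed by -0.18 (0.523).

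These 8 calls were not all kept when single arrays were left out, in fits that leave 1 array in a group. None passed without siNonTarget replicate 1 or without siSocs3 replicate 1, and 2 passed, Orc1 and Tfdp2, without siNonTarget replicate 2 or without siSocs3 replicate 2. Without either siSox17 array 4 passed: Orc1, Tfdp2, E2f6 and Gsk3b. With both arrays of high actin difference left out 4 passed, Orc1, Tfdp2, E2f3 and Gsk3b, and with the 2 groups alone 3, Orc1, Tfdp2 and Gsk3b. With all probe sets of a gene averaged 2 of the 8 passed, Orc1 and Cdk7, beside Ccna2 and Ccne1, which had not passed before.

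**Figure D4:**
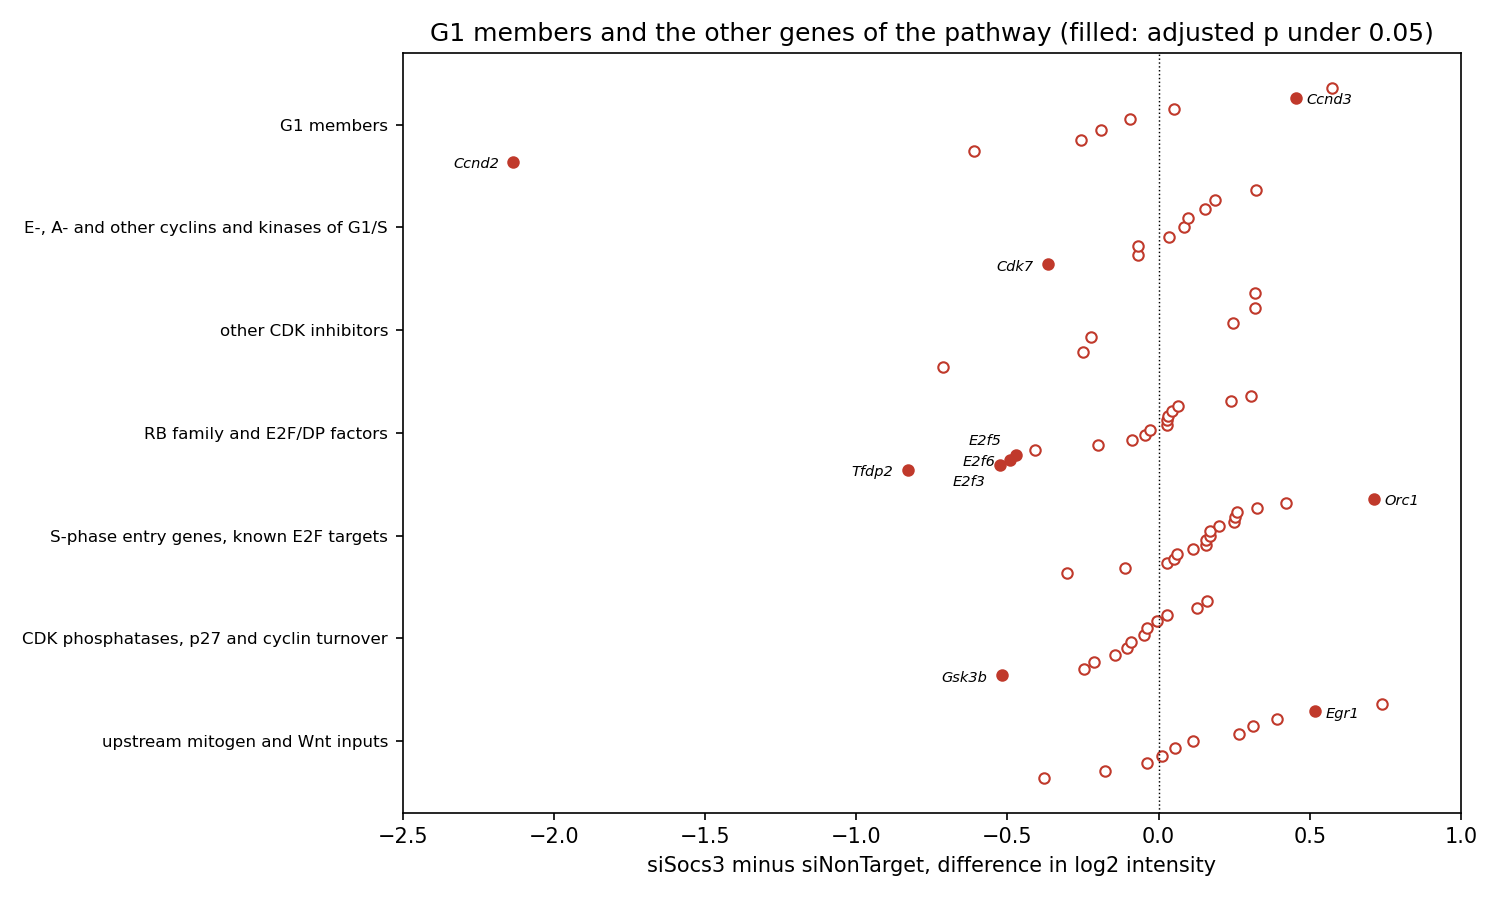
Difference in log2 intensity between siSocs3 and siNonTarget (x axis) for the 8 G1 genes and the 71 other pathway genes, 1 row per list; filled points passed at an adjusted p under 0.05 and are named. Ccnd2, at -2.13, lies farthest from 0, and 4 genes of the RB and E2F list, from Tfdp2 at -0.83 to E2f5 at -0.47, are filled on the lower side.

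Compared directly with the other targeted groups, Orc1 was higher on the siSocs3 arrays each time, by 0.56 against siSox17 (limma adjusted p = 0.0345), 0.65 against siFbxw7 (0.0155) and 0.64 against siRnf31 (0.023). Cdkn1a fell by 0.87 against siSox17 (limma adjusted p = 0.0438). Cdkn3, a phosphatase that acts on CDKs, rose by 0.62 against siFbxw7 (limma adjusted p = 0.0263). Averaging all probe sets of a gene, or leaving out either siSocs3 array, ended the Orc1 call in all 3 comparisons. The Orc1 call was also lost against siSox17 without either siSox17 array, against siFbxw7 with the 2 groups alone, without siFbxw7 replicate 1 or with both high-actin arrays left out, and against siRnf31 without either siRnf31 array. The Cdkn1a call was lost in every fit that left out a single array other than those of siNonTarget, and with all probe sets of a gene averaged. The Cdkn3 call was lost without either siSocs3 array, without either siFbxw7 array, without both arrays of high actin difference and with the 2 groups alone. No other gene of the lists passed in these comparisons, and in the other 6 comparisons 0 of the 71 passed the limma fit.

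The genes most like Ccnd2 and Cdkn1c, the 2 G1 genes whose group means spanned at least 1 log2 unit, were found by the root mean square difference over the 10 arrays after each gene was centred on its own mean. Nearest to Ccnd2, whose own standard deviation over the arrays was 0.827, were Pax6 at 0.232, Hoxb3 at 0.244, Dgkh at 0.26, Tshz1 at 0.287 and Plxna2 at 0.288. Pax6 is also on the list of neural ectoderm markers given above, and like Ccnd2 it was lower on the siSocs3 arrays, by -2.09. Nearest to Cdkn1c, with a standard deviation of 0.553, were Il33 at 0.215, Car2 at 0.238, Spink1 at 0.254, Aard at 0.26 and Plk3 at 0.289. These distances describe 10 arrays that share their groups and processing, and carry no test.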

How the data were processed

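The data are 10 1-colour Affymetrix arrays, 2 per siRNA group as the labels give it, made from 5 ng of total RNA per the labels' protocols. The deposited values are intensities on a linear scale, made by the authors with RMA per the submitters' processing notes; its version is not given in the sources used here. RMA aligns the distributions of the arrays, which hides any shift common to most genes. After log2, the probe set with the highest mean stood for each gene, and 1 limma 3.58.1 model (R 4.3.3, lmFit and eBayes) was fitted to 18194 genes over all groups. The 10 comparisons were tested two-sided at 0.05, each adjusted on its own by Benjamini-Hochberg. Scripts were checked on data with known answers. The number of arrays limits precision: an exact permutation test of 2 against 2 cannot go below 0.333. Names come from the platform annotation, and 932 probe sets with several symbols were left out.

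The 8 genes and the lists were chosen with earlier results of these data known. Named are the 8 genes, up to 4 passing genes of each pathway list, Ccne1, Cdk2, Cdkn1a, Rbl1, E2f1 and Myc in any case, the targeted genes, and the 5 genes nearest to a G1 gene whose group means span at least 1 log2 unit, sought in the brighter part of all genes. Of the listed genes, Tcf7 and Trp53 were among those not analysed here. Among markers of other cell types, 1 of 9 of extraembryonic endoderm and 2 of 10 of fibroblasts fell on the siSocs3 arrays and none rose. Alternatives covered scaling, dim genes, probe sets, the model, single arrays and a replicate block. Figures used matplotlib 3.10.9.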

Additional observations from a re-analysis of the deposited data

How the results depend on the processing

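Each count of G1 genes called was recomputed under 21 other settings, and no called difference of a G1 gene changed sign. For siSocs3 against siNonTarget, where 2 of 8 passed, 1 passed (Ccnd2) with all probe sets of a gene averaged, 1 with a 2-fold minimum and 1 without both arrays of high actin difference; leaving out 1 array at a time gave 0 to 3. For siSocs3 against siSox17, where 0 passed, 3 passed (Ccnd1, Ccnd2 and Cdk6) with the 2 groups alone and 3 without both high-actin arrays, and leaving out single arrays gave 0 to 1. For siSocs3 against siFbxw7, where 1 passed, 0 passed with the 2 groups alone and 0 with a trended robust prior, and leaving out single arrays gave 0 to 1. For siSocs3 against siRnf31, where 0 passed, 2 passed (Ccnd2 and Cdkn1c) with the 2 groups alone and 1 without both high-actin arrays, and leaving out single arrays gave 0 to 1. The cause was not tested. The other 6 comparisons gave 0 of the 8 in every setting.

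Over all genes, calls of siSocs3 against siNonTarget numbered 1684, with 63 without siSocs3 replicate 1 as the lowest and 2074 without siFbxw7 replicate 1 as the highest of the gene-level alternatives. Those of siSox17 against siNonTarget numbered 1, and 254 with the 2 groups alone. Against siSox17, siFbxw7 and siRnf31, siSocs3 calls numbered 474, 638 and 387, with ranges of 77 to 881, 81 to 898 and 22 to 677. A group left with 1 array was assumed to vary like the others. The settings for the other pathway genes were chosen after the data were seen.

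Over 10 pairs of groups the correlation of same-numbered deviations ran from -0.26 to 0.421, with 1 pair over 0.1 and 3 below -0.1. Every array whose closest array lay in another group shared its replicate number with that array. An example is siSox17 replicate 2 with siFbxw7 replicate 2 (r = 0.9978). Whether replicate numbers mark shared processing was not tested. With the replicate number as a block, 2 of 8 still passed for siSocs3 against siNonTarget, while 0 of the 71 other pathway genes passed for siSocs3 against siSox17, where 2 (Orc1 and Cdkn1a) had without it.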
